A study of Mus musculus with 3 samples.

Results

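The 10 genes described here encode the AP-1 transcription factor and products of the immediate early response, and they were measured in 3 RNA-seq libraries of mouse aortic endothelial cells, cells of the vessel lining bought as a culture. They were picked by symbol from the deposited tables, with results of these data already known, and all 10 were present among the 18287 listed genes. The Fos family (Fos, Fosb, Fosl1, Fosl2) and the Jun family (Jun, Junb, Jund) encode the subunits of AP-1. Egr1, Ier2 and Ier3 are immediate early genes outside it. The control group (1 library) is labelled only as control. The glucose oxidase group (1 library) received this enzyme, which makes hydrogen peroxide, at 5 mU/mL for 30 min. The third group (1 library) received the same glucose oxidase together with ethyl-2-hydroxybenzylamine (Et2HOBA) at 0.2 mM for 24 h. Et2HOBA was used to scavenge isolevuglandins, reactive products of lipid oxidation, and the labels do not give the order of the exposures. No library given Et2HOBA alone was analysed here, so an effect of Et2HOBA on its own and an effect on the response to glucose oxidase cannot be told apart.

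AP-1 is a pair of basic leucine zipper proteins that binds DNA. Fos proteins do not pair with themselves and bind as partners of a Jun protein, while Jun proteins can also pair with each other. Transcription of Fos, Fosb, Egr1 and Ier2 starts within minutes of a stimulus, without new protein synthesis, through MAP kinases, serum response factor and CREB, and their short-lived transcripts then decay. Fosl1 (the protein Fra-1) and Fosl2 (Fra-2) usually come later, stay longer and lack the strong activation domain of Fos and Fosb. In endothelium these genes are known to respond to growth factors, injury, shear stress and oxidants.

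The main result was a change in the make-up of the Fos family. The leading gene changed only when counts were divided by exon length, since by normalized count Fosl2 was the highest Fos gene in each library. Fos and Fosb, the prompt members, were near control after glucose oxidase and far below it in the library given Et2HOBA as well. Fosl1 and Fosl2 were higher after glucose oxidase and higher again with Et2HOBA. Ier3 followed Fosl2, whereas the 3 Jun genes, Egr1 and Ier2 moved less. Each group is 1 library, so the differences have no replicate check and the conditions could not be tested against each other. Ratios are of normalized counts (reads divided by the library's size factor), and their 95% intervals are exact Clopper-Pearson intervals that cover counting error only. They compare libraries, not conditions. Reads of the glucose oxidase library were worked back from the authors' log2 differences, as whole reads. In the authors' deposited table Fos had a log2 difference from control of -0.04 after glucose oxidase and -2.01 with Et2HOBA, and Fosl1 had 2.08 and 3.39, each on a scale of its own comparison. In bulk RNA, fewer cells of a type and less RNA per cell cannot be told apart.

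Promoter sequences are shown for 4 members because Fos, Fosb and Junb hold the letters of a cyclic AMP response element core and Jun those of its known AP-1-like element. The sequences are the 250 bases before the RefSeq gene start, in build GRCm38.p6, 5′ to 3′ on the gene's strand. Capitals mark TGACG, TGACATCA and TATAAA, on either strand.
Fos: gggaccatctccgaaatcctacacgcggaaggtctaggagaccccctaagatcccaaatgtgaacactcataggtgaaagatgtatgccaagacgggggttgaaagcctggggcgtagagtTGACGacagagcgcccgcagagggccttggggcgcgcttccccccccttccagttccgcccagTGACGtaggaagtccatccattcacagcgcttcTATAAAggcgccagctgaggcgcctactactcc
Fosb: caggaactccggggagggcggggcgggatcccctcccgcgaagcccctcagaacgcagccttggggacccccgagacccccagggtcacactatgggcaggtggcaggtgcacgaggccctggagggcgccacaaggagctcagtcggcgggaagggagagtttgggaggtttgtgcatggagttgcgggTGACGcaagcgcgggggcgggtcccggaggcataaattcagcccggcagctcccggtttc
Junb: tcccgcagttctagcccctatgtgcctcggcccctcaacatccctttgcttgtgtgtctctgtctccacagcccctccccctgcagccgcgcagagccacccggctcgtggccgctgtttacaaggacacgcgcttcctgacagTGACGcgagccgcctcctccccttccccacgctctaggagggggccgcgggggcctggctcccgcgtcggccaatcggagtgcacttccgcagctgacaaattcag
Jun: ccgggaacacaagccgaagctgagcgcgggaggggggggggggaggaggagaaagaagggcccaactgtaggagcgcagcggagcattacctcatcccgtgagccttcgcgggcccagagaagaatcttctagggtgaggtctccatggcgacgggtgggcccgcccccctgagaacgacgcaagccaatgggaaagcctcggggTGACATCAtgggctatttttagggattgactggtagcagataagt
The Fos window lies at chr12:85473640-85473889 on the plus strand, and the other windows lie on the minus strand, at chr7:19310046-19310295 for Fosb, chr8:84978749-84978998 for Junb and chr4:95052223-95052472 for Jun.

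RefSeq windows were used for 7 of the 10 members. None was available for Fosl1 and Ier2, and chromosome 18, where Egr1 lies, was left out of the search of the members. TGACG, which is also the first part of the full element TGACGTCA, stood in 3 of the 7 windows. Its first base lay 129 and 66 bases before the start in Fos, 60 in Fosb and 106 in Junb. Of all 32851 windows of this length, 17.8% hold TGACG on one strand or the other. With Et2HOBA these 3 genes were below their control levels, while the other Fos and Jun genes were above theirs. A link between the letters and the ratios was not tested. Fosl1 has no window to compare, and those of Fosl2 and Jund may miss the promoter in use. Egr1 and Ier2, also below control with Et2HOBA, were not searched. TGACATCA, present in 2.93% of all windows, stood 45 bases before the start of Jun. TATAAA, in 12.4% of windows, stood 33 bases before the start of Fos. The AP-1 site TGANTCA (6.75% of windows) and TGACGTCA (1.55%) were in 0 of the 7 windows. The same held for the CArG box that serum response factor binds (1.47%) and TGATGNAA, a form of the ATF4 element (3.45%). Sequence farther upstream than these windows was not searched, and no window of Egr1, Fosl1 or Ier2 was searched. Absence from a window therefore does not show that a gene, Fos included, lacks a CArG box or another of these elements. The windows of Fosl2 and Jund began at RefSeq starts 299 and 1210 bases from the nearest GENCODE transcript start, so they may not cover the promoter in use.

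**Figure D1:**
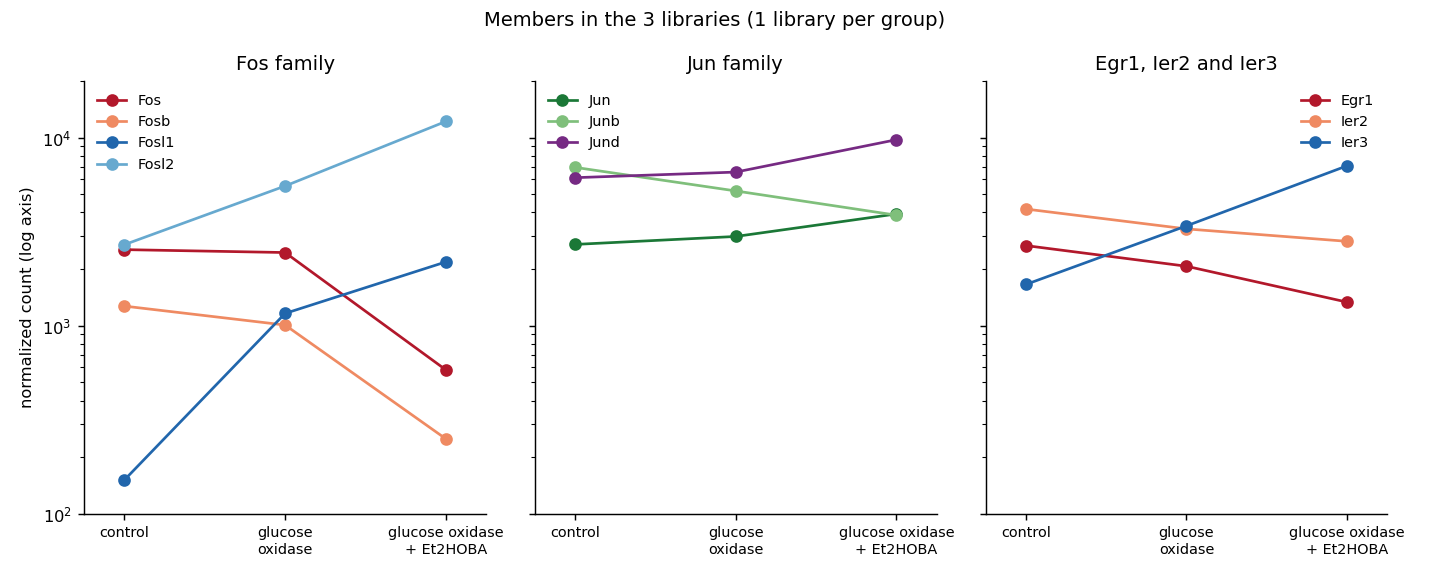
Normalized counts (log axis) of the 10 members in the 3 libraries, 1 point per library, with lines joining the points of a gene. Fos and Fosb drop between the treated libraries, to 582.5 and 250.3, while Fosl1, Fosl2 and Ier3 step up at each library.

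Fos, the founding Fos gene (ENSMUSG00000021250.13, chromosome 12, 85473890 to 85477273, 4 exons), had a normalized count of 2538 in control, 2449 after glucose oxidase and 582.5 in the library given both agents. The first 2 libraries were level, and the third stood apart. The ratio was 0.965 after glucose oxidase against control (95% interval 0.912 to 1.02), the 1 interval among the members that held equal levels in that comparison. With Et2HOBA the ratio to control was 0.230 (0.210 to 0.251).

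Fosb, its closest relative (ENSMUSG00000003545.3, chromosome 7, 19302696 to 19310051, 5 exons), had normalized counts of 1271, 1008 and 250.3 in library order (control, glucose oxidase, both agents), the order used from here on. It was already slightly low after glucose oxidase, at 0.793 of control (0.729 to 0.862), and at 0.197 with Et2HOBA (0.172 to 0.225). Between the treated libraries the ratio was 0.248 for Fosb (0.216 to 0.285), and the interval of Fos in the same comparison overlaps it.

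The fall of Fos and Fosb between the treated libraries can be placed among all genes. On the log2 scale with a pseudocount of 10, used below for every log2 ratio, Fos lay at -2.05 and Fosb at -1.97 in this comparison. On that scale 5 of the 18287 listed genes had a lower value than Fos and 8 had a lower value than Fosb. On the scale of the deposited tables, recomputed for this comparison, Fos lay at -1.18 with 0 genes lower and Fosb at -0.83 with 20 genes lower. Of 10597 protein-coding genes with a mean normalized count of 100 or more, 2461 were within 0.1 log2 units of control after glucose oxidase. Of those 2461, 6 were at or below -1 with Et2HOBA against control, and Fos was the 1 gene at or below -2. These cut-offs fit the values of Fos itself (-0.05 and -2.10), so the count only describes Fos. Fosb, at -0.33 after glucose oxidase and -2.30 with Et2HOBA, lay outside the first cut-off.

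Fosl1, which encodes Fra-1 (ENSMUSG00000024912.6, chromosome 19, 5447547 to 5455946, 4 exons), had the widest range of the members. Its normalized counts were 151.2, 1162 and 2183, each library above the one before. It was 7.69-fold higher after glucose oxidase (6.50 to 9.15) and 14.4-fold higher with Et2HOBA (12.3 to 17.1) than in control. Between the treated libraries the ratio was 1.88 (1.75 to 2.02), a smaller step on the log scale than the one from control to glucose oxidase.

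Fosl1 shares 1163 of its 2033 exonic bases with Ccdc85b on the opposite strand. The libraries were stranded, but the strand setting of the counting is not given in the sources used here. Ccdc85b had 6488, 4016 and 4175 reads, and was below control in both treated libraries, at ratios of 0.662 and 0.639. Between the treated libraries its ratio was 0.966 (0.925 to 1.01), an interval that holds equal levels. The part of the overlap in the values of Fosl1 was not tested.

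Fosl2, which encodes Fra-2 (ENSMUSG00000029135.10, chromosome 5, 32135801 to 32157842, 4 exons), had 2697, 5531 and 12191 normalized counts in library order. It was 2.05-fold the control level after glucose oxidase (1.96 to 2.15) and 4.52-fold with Et2HOBA (4.34 to 4.71). The step between the treated libraries, 2.20-fold (2.14 to 2.28), was larger than that of Fosl1, and the 2 intervals do not overlap.

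These opposite moves altered the make-up of the Fos family, and its sum was higher in both treated libraries. Per kb of exon, with the exons of all annotated transcripts merged, the family summed to 1636, 2346 and 2621 normalized counts in library order. The lengths of the transcripts in use were not measured, so levels and shares per kb are approximate. Without division by length the sums were 6657, 10150 and 15207 normalized counts, the last 2.28-fold control. Without division by length Fosl2 led in control, at 40.5% against 38.1% for Fos. Per kb, Fos led in control with 66.0% of the sum, and after glucose oxidase it held 44.4%. With Et2HOBA the share of Fos per kb was 9.45%, behind Fosl2 at 48.1% and Fosl1 at 41.0%. Fosl1 and Fosl2 together made up 21.6%, 48.7% and 89.0% of the family in library order. Without division by length, the shares were 42.8%, 65.9% and 94.5%. Fosb was the smallest share in both treated libraries, at 6.88% and 1.53% per kb.

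**Figure D2:**
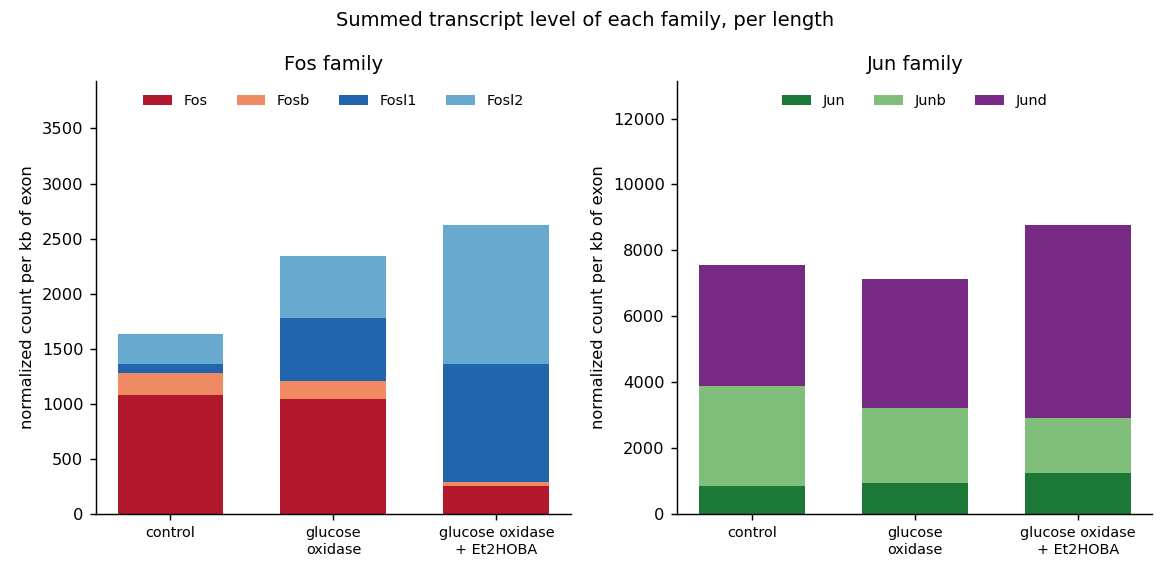
Stacked bars of normalized count per kb of exon for the Fos family (left) and the Jun family (right) in the 3 libraries, on axes that start at 0 and differ between the panels. Fos makes up most of the Fos bar in control, and Fosl1 and Fosl2 make up 89.0% of it with Et2HOBA; Jund is the largest part of each Jun bar.

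Jun, the partner that gives the family its name (ENSMUSG00000052684.4, chromosome 4, 95049034 to 95052222, 1 exon), had 2705, 2982 and 3929 normalized counts. It was 1.10-fold the control level after glucose oxidase (1.05 to 1.16) and 1.45-fold with Et2HOBA (1.38 to 1.52).

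Jund, the Jun gene usually expressed in resting cells (ENSMUSG00000071076.6, chromosome 8, 70698949 to 70700616, 1 exon), moved in the same direction as Jun. Its normalized counts were 6125, 6559 and 9753, or 1.07-fold (1.03 to 1.11) and 1.59-fold (1.54 to 1.64) the control level.

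Junb, a prompt gene whose protein can restrain Jun (ENSMUSG00000052837.6, chromosome 8, 84974484 to 84978718), went the opposite way. Its normalized counts were 6950, 5206 and 3869, at ratios to control of 0.749 (0.723 to 0.777) and 0.557 (0.535 to 0.579). Of the 3 Jun genes it was the 1 below control in both treated libraries.

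Per kb, Jund was the highest Jun gene in each library, at 3672, 3932 and 5847 normalized counts. Junb stood at 3020, 2263 and 1681, and Jun at 848.1, 935.2 and 1232. The share of Junb in the family sum was 40.1%, 31.7% and 19.2%, and that of Jund was 48.7%, 55.2% and 66.7%. Summed per kb, the Fos family was 0.217, 0.329 and 0.299 of the Jun family, so the Jun sum was the higher in each library. Exons of genes on the opposite strand overlap 232 bases of Jun (Junos), 173 of Junb (Prdx2) and 877 of the 1668 exonic bases of Jund (Gm11175, which was not among the listed genes). Junos had 19, 43 and 51 reads, and Prdx2 had 11362, 8516 and 7765.

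Egr1, a zinc finger factor that responds early to vascular injury (ENSMUSG00000038418.7, chromosome 18, 34859823 to 34864984, 3 exons), had 2667, 2071 and 1334 normalized counts. The level after glucose oxidase was 0.777 of control (0.733 to 0.823), and with Et2HOBA it was 0.50 (0.469 to 0.534). It was lower at each step, and the ratio between the treated libraries was 0.644 (0.601 to 0.691).

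Ier2, a short single-exon gene that encodes a nuclear protein (ENSMUSG00000053560.5, chromosome 8, 84661331 to 84662854), had 4172, 3271 and 2809 normalized counts. Its ratios to control were 0.784 (0.749 to 0.821) and 0.673 (0.642 to 0.706). The larger step lay between control and glucose oxidase, and the ratio between the treated libraries was 0.859 (0.816 to 0.903).

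Ier3, also called IEX-1, a stress-inducible gene that affects cell survival (ENSMUSG00000003541.6, chromosome 17, 35821684 to 35822923, 2 exons), had 1656, 3395 and 7087 normalized counts. It was 2.05-fold the control level after glucose oxidase (1.93 to 2.17) and 4.28-fold with Et2HOBA (4.06 to 4.51). These ratios lie beside those of Fosl2, whose intervals overlap them in both comparisons with control. Per kb, Ier3 had the highest level of the 10 members in the library given Et2HOBA, at 6266, followed by Jund at 5847, whereas in control, at 1464, it was below Jund, Junb and Ier2, the last at 2741.

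**Figure D3:**
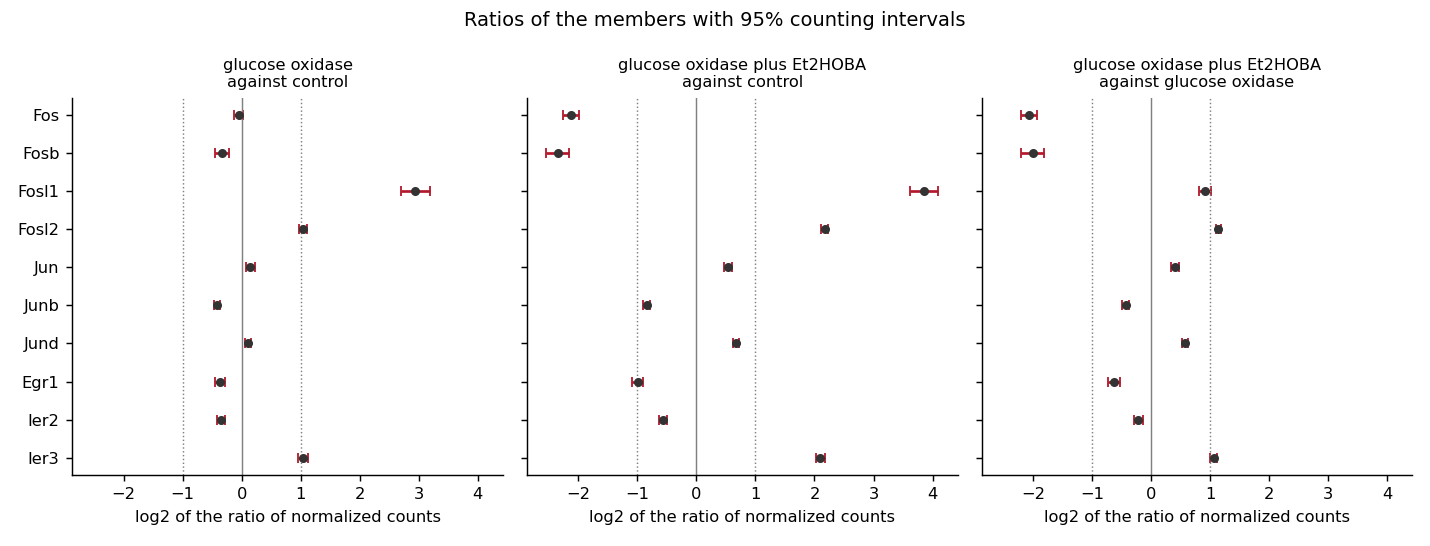
Log2 of the ratio of normalized counts, without a pseudocount, for the 10 members in 3 comparisons, with bars for the 95% counting interval and dotted lines at -1 and 1. Fosl1, Fosl2 and Ier3 lie to the right of 0 in each panel, and Fos moves away from 0 only where the library given Et2HOBA is compared.

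The members were then set beside all listed genes, with a log2 ratio of 1 in either direction as the limit. After glucose oxidase against control, 3 of 10 members were past this limit, against 12.7% of all listed genes. All 3 were higher (Fosl1 at 2.86, Fosl2 and Ier3 at 1.03), where 4.07% of genes were, and 0 were lower, where 8.6% of genes were. Fosl2 and Ier3 were only just past the limit and fell short of it with total-count scaling and on the scale of the deposited tables, leaving 1 member.

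With Et2HOBA against control, 5 of 10 members were past the limit, against 14.7% of all listed genes. The 3 higher members were again Fosl1 (3.77), Fosl2 (2.17) and Ier3 (2.09), beside 6.66% of genes, and the 2 lower members were Fosb (-2.30) and Fos (-2.10), beside 8.04% of genes. Egr1, at -0.99, and Junb, at -0.84, came nearest to the limit without passing it. Both comparisons use the same control library, so their values are not independent.

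Between the treated libraries, 4 of 10 members were past the limit, against 8.55% of all listed genes. Fosl2 (1.14) and Ier3 (1.06) were higher with Et2HOBA, where 6.39% of genes were, and Fos and Fosb were lower, where 2.15% of genes were. The count rests on the scale. On that of the deposited tables Fosb (-0.83) and Ier3 (0.87) fell short of the limit, which left 2 members. With total-count scaling Ier3 (0.97) fell short, which left 3. Fosl1, at 0.90 on the main scale, was just short of the limit. Since the members were picked with these values in view, their shares are a description and show nothing particular about the group.

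The median log2 ratio hid this split. Over the 10 members it was 0.02 and -0.02 for the comparisons with control and 0.09 between the treated libraries, beside -0.01, 0.00 and 0.00 over all listed genes. In each comparison 5 members lay above 0 and 5 below, and the range widened from -0.42 to 2.86 after glucose oxidase to -2.30 to 3.77 with Et2HOBA.

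**Figure D4:**
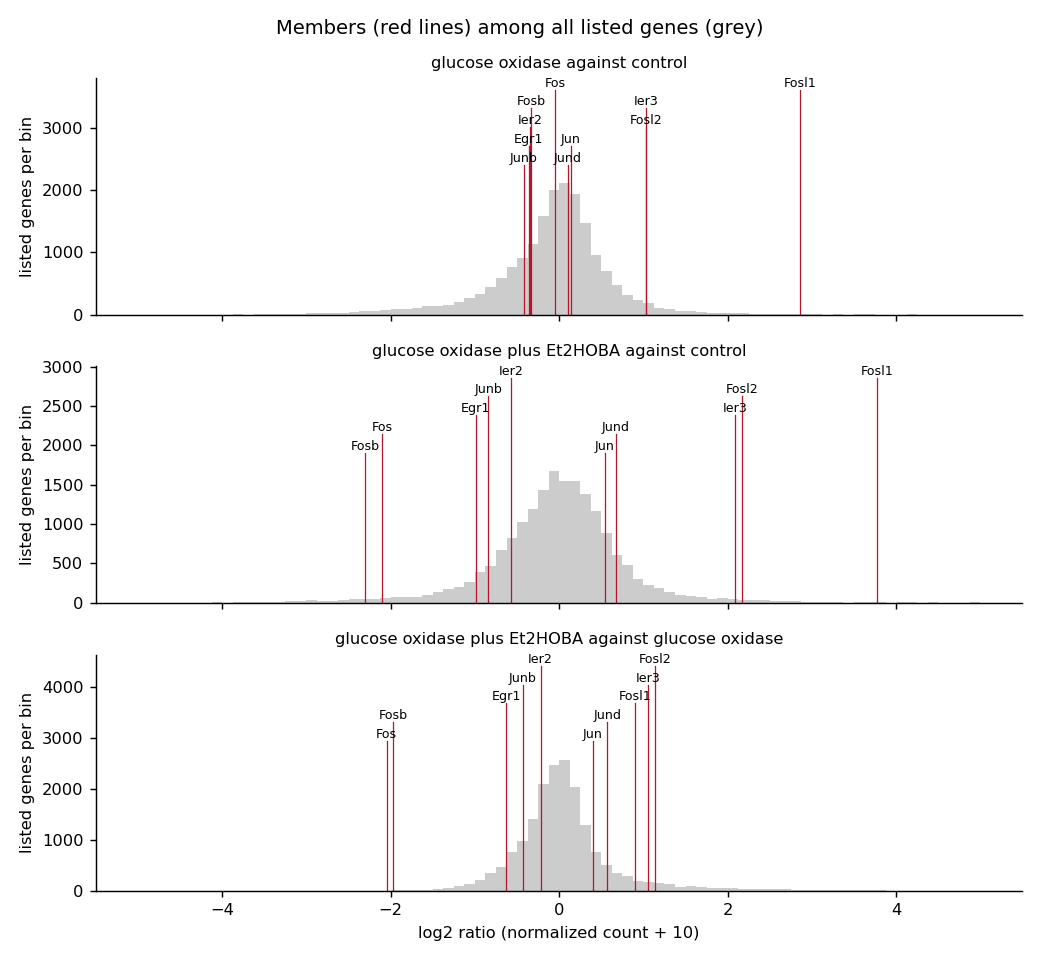
Histograms of the log2 ratio (normalized count + 10) of all listed genes in bins of equal width (grey, genes per bin), with red lines at the 10 members, for 3 comparisons; values past the ends of the axis are counted in the end bins. After glucose oxidase 7 members sit inside the bulk of genes and Fosl1 far to the right; between the treated libraries Fos and Fosb sit at the far left.

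Other genes with patterns like those of the members were found by distance in the 2 log2 ratios against control, over 3 libraries and 10587 other protein-coding genes with a mean normalized count of 100 or more. Fos had no other gene within 0.25; the nearest was Nkx2-3, at 0.57, with 526, 484 and 176 reads in library order. Fosb had none within 0.25 either, and Serpina3i was nearest at 0.35. The pattern of Fosl1 was shared by 7 genes within 0.25, led by Il1f9 at 0.10 and Klf5 at 0.15. Fosl2 and Ier3 had 10 and 13 such genes, with Dner and Hilpda the nearest to both. Egr1, Jund, Junb, Ier2 and Jun had between 321 and 1317 genes within that distance, so their patterns were common ones.

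The genes around AP-1 were taken from lists written with earlier results of these data known. Of 12 other leucine zipper factors that can pair with AP-1 proteins or compete with them, 10 were listed. After glucose oxidase 1 was higher than control past the limit, and with Et2HOBA 6 were. In either comparison 0 were lower, and the list medians were 0.44 and 1.05. Of all listed genes 4.07% and 6.66% were higher past the limit in these comparisons, and 8.6% and 8.04% were lower. Atf3, a stress-induced factor that pairs with Jun proteins, was the 1 gene higher in both, with 107, 667 and 1630 reads in library order (log2 ratios of 2.62 and 3.80). Maff, a small Maf protein, had 840, 1137 and 2926 reads, with a log2 ratio of 1.25 between the treated libraries. Jdp2, a repressor of AP-1, had 1327, 2462 and 4137.

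Of 40 other immediate early genes, 39 were listed. Past the limit, 5 were higher and 3 lower after glucose oxidase, 13 higher and 6 lower with Et2HOBA against control, and 5 higher and 1 lower between the treated libraries. Of all listed genes, 4.07%, 6.66% and 6.39% were higher past the limit in the same order, and 8.6%, 8.04% and 2.15% were lower. The list medians were 0.21, 0.56 and 0.37. Like the members, the list held genes that moved in opposite directions. Gadd45a, a growth arrest gene, had 667, 3761 and 7345 reads, and Ptgs2, which encodes cyclooxygenase-2, had 1356, 3324 and 10705. Ccn2, a matricellular growth factor gene, had 344, 731 and 2483 reads, and Dusp5, a nuclear phosphatase for ERK, had 273, 695 and 1651. The 1 gene lower between the treated libraries was Rgs2, a regulator of G-protein signalling, at -1.57, and Sgk1, a serum-induced kinase, was lower in both treated libraries than in control, at -1.63 and -2.58.

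Transcripts of the factors and kinases that act upstream of Fos were read against the shares of all listed genes past the limit, which were 12.7% after glucose oxidase and 14.7% with Et2HOBA. Of the 8 serum response and CREB family genes, 0 were past the limit after glucose oxidase and 1 with Et2HOBA against control, with medians of -0.06 and 0.08. That gene was Mrtfb, a coactivator of serum response factor, with 9655, 5302 and 3537 reads. Srf itself had 1390, 1214 and 1566. Of the 24 genes of the MAP kinase cascade, 1 was past the limit after glucose oxidase and 3 with Et2HOBA, 2 of these higher. Map3k5 (ASK1, a kinase activated by oxidants) was the gene past it in both, with 530, 1133 and 1765 reads. RNA levels carry no measure of kinase activity.

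Of 20 genes described elsewhere as AP-1 targets, 19 were listed, and 8 were higher than control past the limit after glucose oxidase, 13 with both agents and 4 between the treated libraries. In each comparison 0 were lower, and the medians were 0.87, 1.73 and 0.50. The shares of all listed genes past the limit were 4.07%, 6.66% and 6.39% higher, and 8.6%, 8.04% and 2.15% lower. Mmp13, an interstitial collagenase, had 18, 334 and 620 reads. Plaur, the urokinase receptor, had 837, 2944 and 4678 reads. These genes have other regulators too, and the list was written knowing that some of them were high here.

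**Figure D5:**
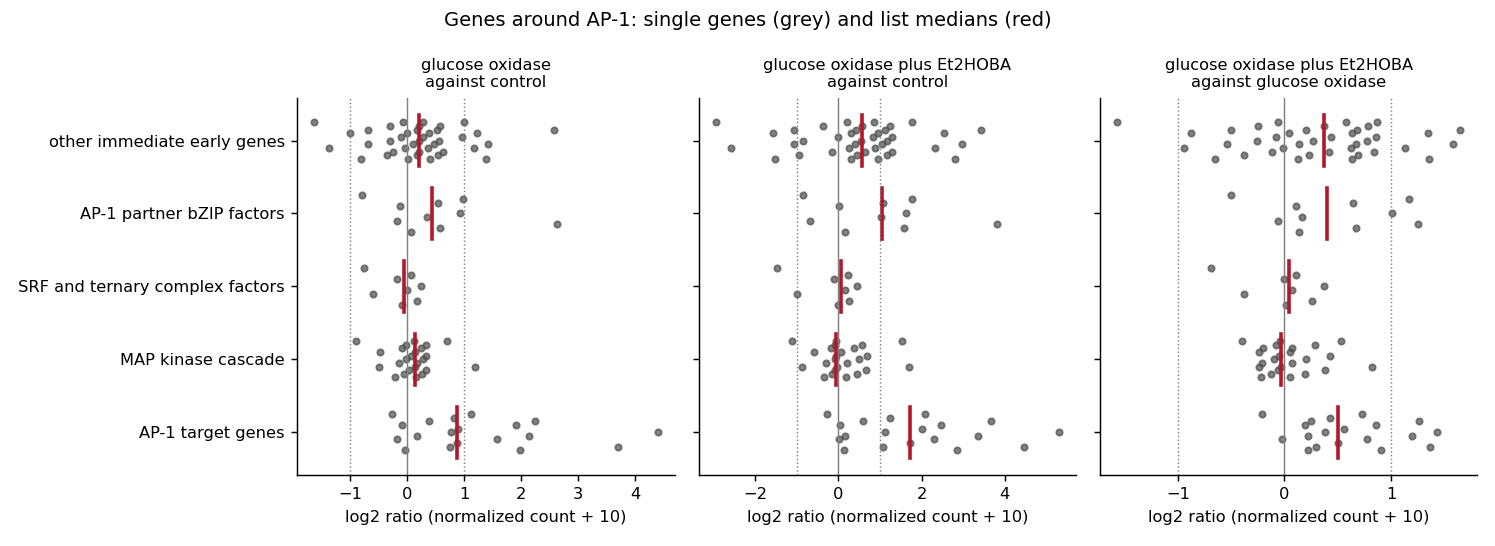
Log2 ratios (normalized count + 10) of the genes in 5 lists around AP-1 (grey points, 1 per gene, spread vertically for legibility) and the list medians (red bars) in 3 comparisons, with dotted lines at -1 and 1; the horizontal axes differ between panels. The AP-1 target list has medians of 0.87, 1.73 and 0.50. The median of the MAP kinase list stays near 0, though single genes of that list pass the dotted lines.

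The libraries held 35969965, 35005089 and 40212212 reads over the listed genes, and the 10 members took 0.0887% to 0.114% of them. Endothelial markers were abundant throughout, at 0.597% to 1.11% of reads over 12 genes, but part of them were lower in the treated libraries. After glucose oxidase 3 of the 12 were lower past the limit, with a median log2 ratio of -0.53, where 8.6% of all listed genes were lower. With Et2HOBA against control 5 of the 12 were, with a median of -0.89, where 8.04% of all listed genes were lower. Of 8 leukocyte markers 4 were listed, and Ptprc, the marker of that lineage, was not among the listed genes. Their summed normalized count was 8152, 17780 and 26860, nearly all of it Cd68, which encodes a lysosomal protein. Of 7 fibroblast markers 2 were listed, with a summed normalized count of 130.8, 1404 and 2738, nearly all of it Pdgfra. Of 7 smooth muscle markers 5 were listed, with sums between 3714 and 4856, nearly all of it Smtn. The part of these shifts in the members' values was not tested. Jun, Jund and Ier2 have a single exon; over the 315 listed protein-coding genes of that kind the median log2 ratios were -0.17, -0.24 and -0.05 in the 3 comparisons.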

How the data were processed

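Polyadenylated RNA was sequenced from 3 libraries, 1 per group. Per the submitters' processing notes, STAR, featureCounts and build mm10 were used; versions and the strand setting are not given in the sources used here. The authors deposited raw read counts, log-normalized values and log2 differences for control and glucose oxidase plus Et2HOBA, and only log2 differences for glucose oxidase against control. The deposited log2 table for the treated libraries lists 7 genes, none of them a member.

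Glucose oxidase read counts had to be worked back from the deposited log2 differences. These are differences of arcsinh-transformed square roots of scaled counts, and inverting them gave whole reads within 0.01 for 100% of 18275 genes matched by symbol (3.31% with control counts raised by 1 read). The procedure was tested on simulated data. The 10 members and the gene lists were chosen with earlier results of these data known.

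Normalized counts are reads over median-of-ratios size factors (1.03, 0.965 and 1.04), and log2 ratios used a pseudocount of 10, which understates the change of low genes. Intervals are exact Clopper-Pearson (scipy 1.17.1). Genes named from lists were those past 1 log2 unit in any comparison, with a mean normalized count of 50 or more. At most 6 per list were taken, by size. Srf and Elk3 were added after their values were seen. The nearest 3 genes per member were computed for the likeness of pattern. Lengths, exons and overlaps are from GENCODE M21, where 17878 gene IDs had the same version and all of these the same position. The longest transcript of each member shared no 50-base stretch with transcripts of another gene on the sense strand. That search did not count the overlaps with genes on the opposite strand given above for Fosl1, Jun, Junb and Jund. Other pseudocounts, scalings (TMM by edgeR 4.0.16), filters, limits and the deposited scale were tried as alternatives.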

Additional observations from a re-analysis of the deposited data

How the results depend on the processing

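The sign of each of the 30 member ratios (10 members, 3 comparisons) was the same under all 5 alternatives of pseudocount and scaling. The number of members past the limit depended on the setting where a member lay near 1 log2 unit. After glucose oxidase it was 1 in place of 3 with total-count scaling and also on the scale of the deposited tables, since Fosl2 and Ier3 went to 0.98 and 0.97 with the first and to 0.99 and 0.96 with the second. With Et2HOBA against control it was 10 in place of 5 at a limit of 0.5, where 40.1% of all genes were past it. Between the treated libraries it was 7 in place of 4 at a limit of 0.5 (25.5% of all genes) and 2 on the scale of the deposited tables (0.235%), where Fosb had -0.83 and Ier3 0.87, and 3 with total-count scaling, where Ier3 had 0.97; the deposited scale was recomputed from the 7 genes deposited for this comparison. Total-count scaling moved the median of all genes to -0.13 with Et2HOBA against control and brought Egr1 past the limit there. With a pseudocount of 1 the share of all genes past the limit was 23.2%, 24.6% and 18.1% in the 3 comparisons, so the background beside the members' counts depends on how low genes are treated. Over genes with no shared stretch it was 9.04%, 16.6% and 3.22%. Counting error was small at this depth, the widest intervals being those of Fosl1 against control (156 control reads) and of Fosb between the treated libraries (260 reads with Et2HOBA). No paired analysis was possible because each group has 1 library.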

Other observations

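Some immediate early genes outside the members, chosen here after their values were seen, ran against Fos. Nr4a1, an orphan nuclear receptor gene that is often induced together with Fos and Egr1, had 1462, 1301 and 3578 reads in library order (control, glucose oxidase, both agents). Its ratio between the treated libraries was 2.56 (95% counting interval 2.40 to 2.73), where that of Fos was 0.238 (0.217 to 0.260). Both genes were close to control after glucose oxidase and moved in opposite directions in the library given Et2HOBA. Klf4 and Klf2, flow-responsive endothelial factors, had log2 ratios of 0.01 and 0.21 after glucose oxidase and 0.87 and 0.89 with Et2HOBA against control. Nfkbiz, an inducible regulator of NF-kappaB, had 6240, 5677 and 6259 reads and log2 ratios within 0.04 of 0 in each comparison. Btg2, an antiproliferative immediate early gene, had 6843, 3967 and 2312 reads, and Zfp36, whose protein promotes decay of AU-rich transcripts, had 2476, 1868 and 1378. Dusp1, a phosphatase of MAP kinases, had 3026, 3272 and 5459. The immediate early genes thus did not move as 1 block in these 3 libraries, and with 1 library per group the differences have no replicate check.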
